A study of Mus musculus with 32 samples.

Results

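The fibrillar collagen genes Col1a1, Col1a2, Col3a1, Col5a1, Col5a2, Col5a3, Col11a1, Col24a1 and Col27a1 were followed through the mesenchymal cells of mineralizing marrow cultures. The 9 genes were taken by symbol from the 31053 genes in the deposited matrices, and each symbol was found once. Col2a1 and Col11a2, the remaining fibrillar collagen genes, are given among the companion genes of the pathway.

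Fibrillar collagens are secreted as trimers of alpha chains whose ends are trimmed outside the cell, after which the trimers pack side by side into banded fibrils. Type I collagen is built from alpha1(I) and alpha2(I) chains and is the main protein of bone matrix, while type III collagen is a homotrimer of soft and remodelling connective tissue. Types V and XI are minor partners that lie within the fibrils and help set when they start and how thick they become, and types XXIV and XXVII are later-described members with short, interrupted helices.

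The cells were BMSC-OBs, bone marrow stromal cells from the femurs of Diversity Outbred (DO) mice, an outbred stock bred from several inbred strains. They were grown to confluence and then kept for 10 days in an osteogenic medium with ascorbic acid, β-glycerophosphate and dexamethasone, so every group below shares that treatment and there was no untreated arm. Cells of 77 mice were joined into 16 pools of 4 or 5 mice, and each pool was read by 10x 3′ single-cell RNA sequencing in 2 runs of the same droplets. Sex and age are not among the labels of these pools, ascorbic acid itself is a cofactor of collagen hydroxylation, and the cells were freed with collagenase and trypsin, all of which bear on these cultures as a model of bone.

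Cells were placed in 6 classes by marker genes, none of them a collagen: late mesenchymal progenitors (LMP), marrow adipogenic lineage progenitors (MALP), osteoblast progenitors (OBP), mature osteoblast populations OB1 and OB2, and osteocyte-like cells (Ocy). Of 107853 barcodes in the first run, 32644 were gated, namely 10795 LMP-like, 7793 MALP-like, 4548 OBP-like, 3354 OB1-like, 4086 OB2-like and 2068 Ocy-like cells. A further 6849 cells passed the osteogenic gate but could not be split into OBP, OB1, OB2 or Ocy, and 15793 fell in no group. Both sets were left out, so the osteogenic classes do not cover all osteogenic cells. Another 12559 leukocyte-like cells, which should make no fibrillar collagen, served as a gauge of free RNA. Where free RNA is subtracted below, it is their count per cell that is subtracted, since empty droplets were not examined. Every class is a range of marker scores, and 28.86% of OB1-like, 24.87% of OB2-like and 28.43% of Ocy-like cells lay within 0.1 of a cut, against 4.41% of MALP-like cells. The gate itself excluded cells by their leukocyte, endothelial and glial markers, so low sums of those 3 lists do not check the labels. Leukocyte markers summed to 0.0913 to 0.931 UMIs (unique molecular identifiers, 1 per captured transcript) per 10,000 in the mesenchymal classes. Endothelial, glial and T-cell markers summed to at most 0.284, 0.0316 and 0.0569. Markers of other blood cells were higher in single pools, with B-cell markers up to 6.23 in OB1-like pools (median 0.0784), granulocyte markers up to 3.299 in LMP-like and 3.15 in MALP-like pools (medians 0.188 and 0.510), macrophage markers up to 1.64 in LMP-like pools and osteoclast markers up to 0.782 there. Their part in the collagen levels was not tested. Osteogenic markers, led by Ibsp, still reached a median of 108.8 per 10,000 in LMP-like and 30.5 in MALP-like cells, against 654 in OBP-like cells. Chondrocyte markers, led by Sox9, had medians of 1.54 and 1.72 per 10,000 in OB2-like and Ocy-like cells and 0.4995 to 0.662 in the other classes.

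Pools held 53990642 to 100777353 UMIs in the first run. Median UMIs per kept cell were lowest in pools 13 (2782), 1 (3774) and 18 (5186) and highest in pool 5 (15273), and 621 barcode sequences occurred in more than 1 pool. Median UMIs per gated cell were 18122 in LMP-like, 9233 in MALP-like, 21773 in OBP-like, 19522.5 in OB1-like, 18032 in OB2-like and 15163.5 in Ocy-like cells, and 5468 in leukocyte-like cells. Pools 7 and 18 had too few OB1-like cells, and pools 1 and 2 too few OB2-like cells, for the minimum of 20 cells, so those classes have 14 pools each. All levels below are UMIs per 10,000 of a class's summed UMIs in a pool. A captured 3′ end gives 1 UMI whatever the transcript's length, so no length correction was made, but capture can differ between genes and a ratio of 2 genes is no count of molecules.

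Collagen transcripts made up a large part of the osteogenic cells' messages. The 9 genes together held a median of 0.317% of all UMIs in MALP-like cells and 1.19% in LMP-like cells. The share was 5.74% in OBP-like, 7.12% in OB2-like, 8.78% in OB1-like and 9.51% in Ocy-like cells. In all 4 osteogenic classes Col1a1 ranked at a median of 2 and Col1a2 at 3 among all genes by UMIs. In LMP-like cells the same genes had median ranks of 26.5 and 22, and in MALP-like cells 146.5 and 103. In leukocyte-like cells the 9 genes held 0.212% of all UMIs.

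**Figure D1:**
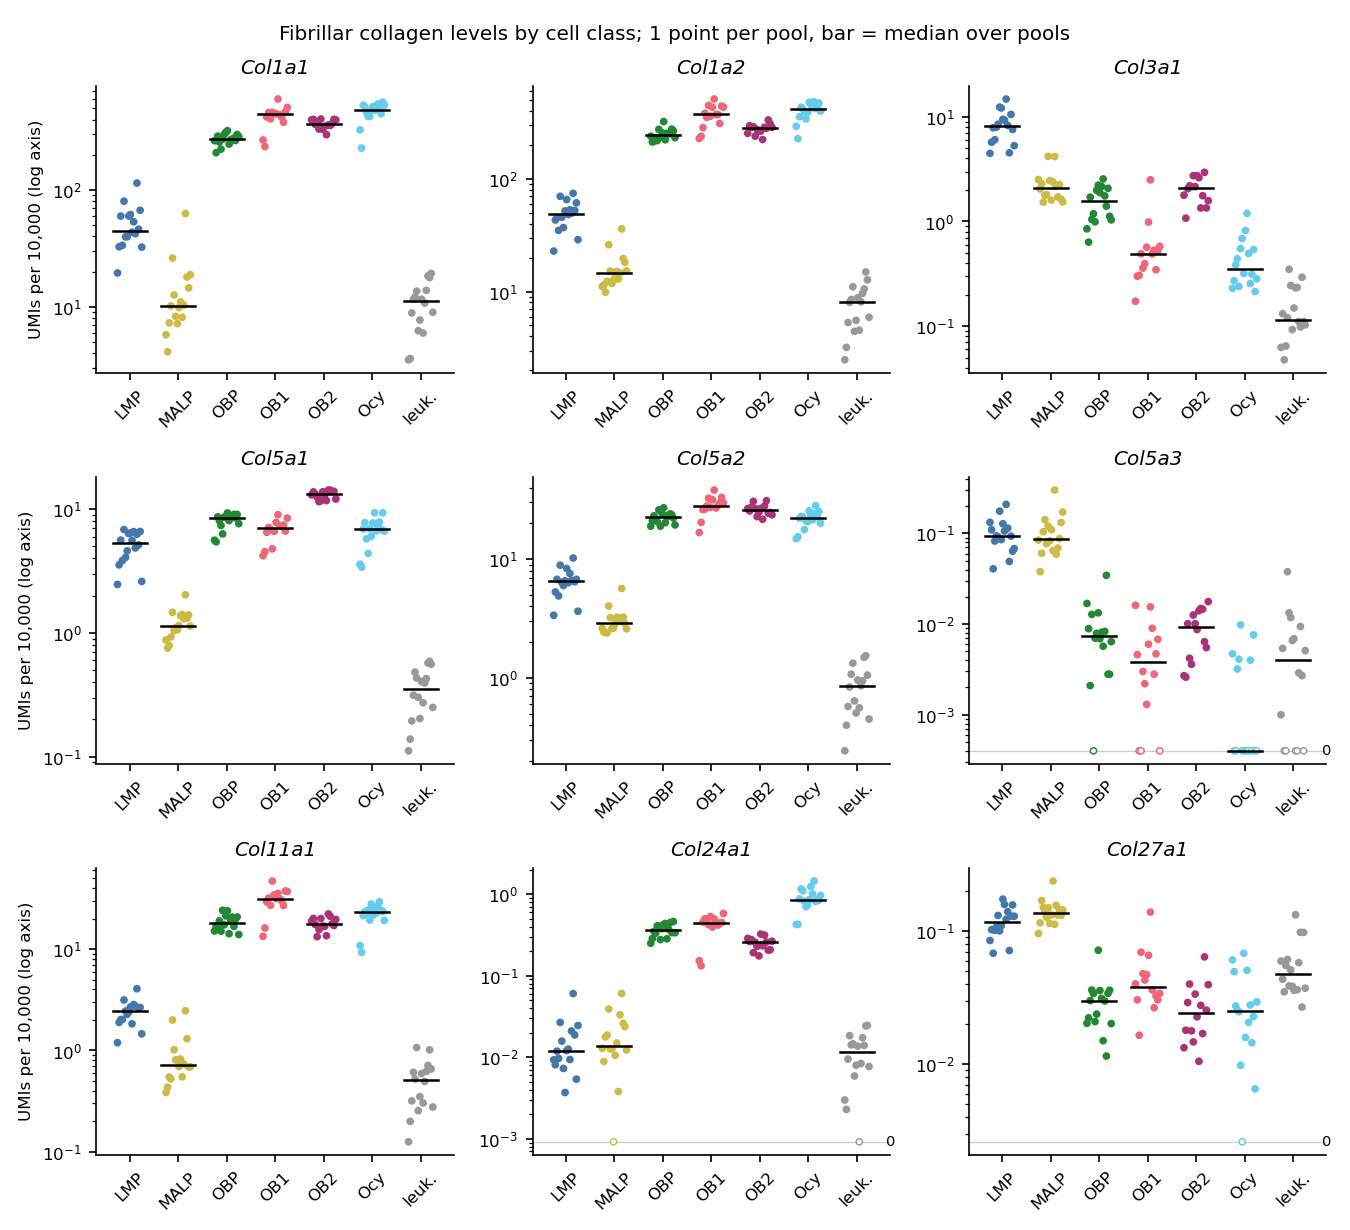
Level of each of the 9 genes in UMIs per 10,000 (log axis) in LMP-, MALP-, OBP-, OB1-, OB2-, Ocy- and leukocyte-like (leuk.) cells; points are pools, bars are medians over 14 or 16 pools, and white points on the line marked 0 are pools with no UMI. Col1a1 medians lie between 271 and 483 in the 4 osteogenic classes and at 44.8 and 10.3 in LMP- and MALP-like cells, while Col3a1 is highest in LMP-like cells at 8.11.

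The 5 comparisons asked how the set differed between LMP-like cells and both of their neighbours, MALP-like and OBP-like cells, between OBP-like and OB1-like cells, and between OB1-like cells and the other mature classes. OB2-like and OB1-like cells were compared as separate mature classes and not as steps of 1 path, and OB2-like cells were not tested against OBP-like cells. Between MALP-like and LMP-like cells, 73.2% of the 12028 genes tested were called at an adjusted p of 0.05, 36.6% as higher and 36.5% as lower. Of the 9 collagen genes 6 were lower and 0 higher by edgeR, with 0 higher at an unadjusted p of 0.05 or with DESeq2 as well. In OBP-like against LMP-like cells 73.4% of genes were called (32.7% higher, 40.7% lower), and 6 collagen genes were higher and 3 lower. In OB1-like against OBP-like cells 47.3% were called (24.0% higher, 23.3% lower), with 6 collagen genes higher and 1 lower. In OB2-like against OB1-like cells 56.2% were called (28.3% higher, 27.9% lower), with 3 collagen genes higher and 4 lower. In Ocy-like against OB1-like cells 40.8% were called (17.9% higher, 22.8% lower), with 1 collagen gene higher and 4 lower. The classes were cut from these same cells and the genes chosen with earlier results known, and each pair of comparisons that shares a class shares its cells. With the pool as a block, the p-values rest on how class differences vary between pools, which hold different mice. All 6 classes share 1 estimate of that spread.

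Scaling decided part of the balance. With TMM, 4407 genes were higher and 4395 lower in MALP-like than in LMP-like cells, and with library size alone 6756 and 2572. In OBP-like against LMP-like cells the split was 3929 higher and 4896 lower with TMM and 2472 and 7315 without it, and in OB1-like against OBP-like cells 2888 and 2807 against 1492 and 5357. In Ocy-like against OB1-like cells it was 2158 and 2744 against 4186 and 1553. The median of all genes moved with it, to 0.26, -0.32, -0.19 and 0.13 on the log2 scale in these 4 comparisons.

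**Figure D2:**
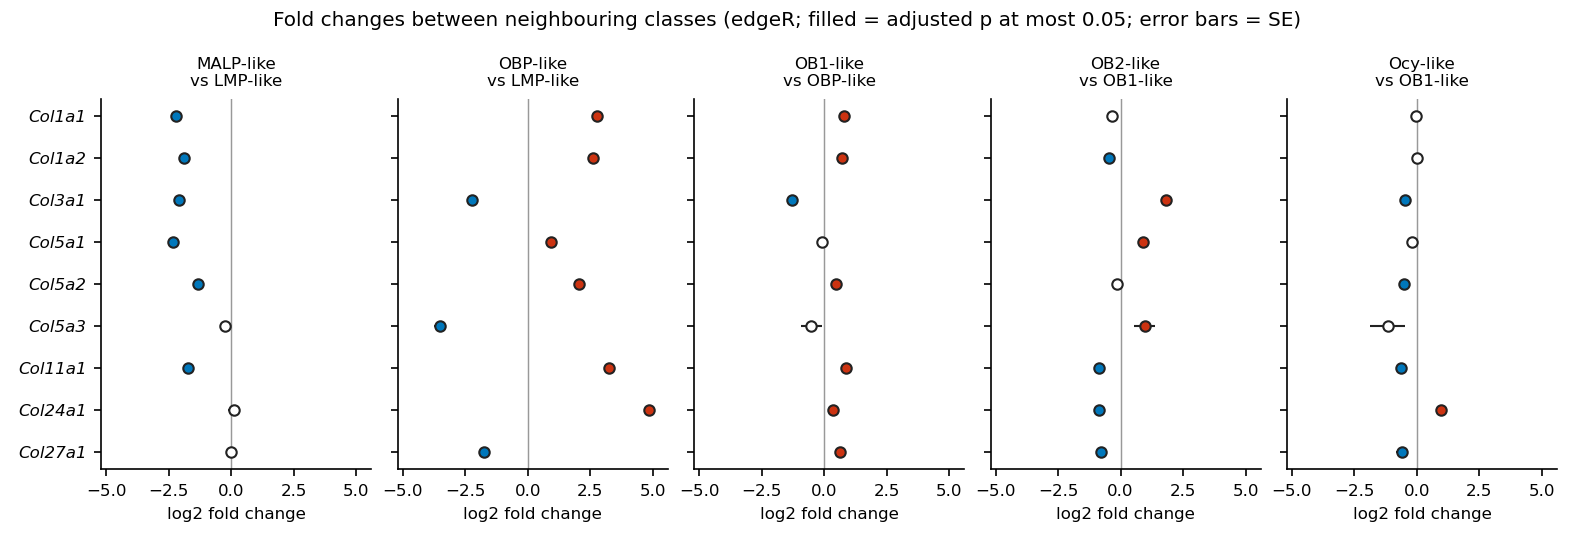
Log2 fold change of each collagen gene (rows) in the 5 comparisons (panels), from 1 edgeR fit; error bars are standard errors, and filled points passed an adjusted p of 0.05. In OBP-like against LMP-like cells the fold changes run from -3.52 for Col5a3 to 4.85 for Col24a1, and in Ocy-like against OB1-like cells the points filled on the lower side are Col3a1, Col5a2, Col11a1 and Col27a1.

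Col1a1 and Col1a2 encode the 2 chains of type I collagen and were the most abundant of the 9 transcripts in every class. Col1a1 (chr11:94936224-94953042, plus strand, GRCm38) ran from 19.5 to 114.8 UMIs per 10,000 over the LMP-like pools, with a median of 44.8. In MALP-like cells it ran from 4.12 through 10.3 to 62.9, and in OBP-like cells from 209 through 271 to 322. The OBP-like pools all lay above every LMP-like pool, while the MALP-like and LMP-like ranges overlapped through MALP-like pools 5 (26.1) and 13 (62.9). The other 14 MALP-like pools lay below every LMP-like pool, and pool 13 was the highest in both classes.

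Col1a1 rose further in OB1-like cells. It ran from 236 through 446 to 602 in OB1-like pools, from 298 through 367 to 406 in OB2-like pools and from 229 through 483 to 565 in Ocy-like pools. Pool 2 was the lowest in OBP-, OB1- and Ocy-like cells. The log2 fold change of Col1a1 was -2.20 ± 0.16 (SE) in MALP-like against LMP-like cells (edgeR adjusted p = 2.29e-21, lower in 16 of 16 pools) and 2.76 ± 0.16 in OBP-like against LMP-like cells (adjusted p = 1.48e-26, higher in 16 of 16). It was 0.81 ± 0.16 in OB1-like against OBP-like cells (adjusted p = 1.64e-05, higher in 14 of 14 pools). The study itself named Col1a1, with Sparc, among genes of mature osteoblasts in both its clusters, so the high level there is not independent evidence.

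The order of the mature classes was not settled for Col1a1. OB2-like cells were lower than OB1-like cells in 12 of 12 pools, but the log2 difference of -0.33 ± 0.17 missed the threshold (edgeR adjusted p = 0.0841), and it passed with only those 2 classes in the fit (-0.36, adjusted p = 0.000175) and without pool 13 (-0.34, adjusted p = 0.0247). The Ocy-like median was the highest of all classes, yet the difference from OB1-like cells was -0.04 ± 0.16 on the log2 scale after TMM (adjusted p = 0.864), and 10 of 14 pools were higher before it.

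Col1a2 (chr6:4504814-4541544, plus strand) followed the same course at a slightly lower level in osteogenic cells. Its medians were 48.7 in LMP-like, 14.6 in MALP-like and 243.5 in OBP-like pools, with ranges of 22.8 to 74.1, 9.85 to 35.9 and 212 to 320.3. In OB1-like pools it ran from 227 through 371 to 508, in OB2-like pools from 222 through 282 to 331 and in Ocy-like pools from 226 through 418 to 481. No LMP-like pool reached an OBP-like pool, and the mature classes overlapped one another. Its log2 fold changes were -1.88 ± 0.10 in MALP-like and 2.63 ± 0.11 in OBP-like against LMP-like cells, and 0.72 ± 0.10 in OB1-like against OBP-like cells (adjusted p at most 1.27e-08 in each). In OB2-like against OB1-like cells it was lower in 12 of 12 pools, by -0.45 ± 0.11 (adjusted p = 0.000224), and in Ocy-like against OB1-like cells the value was -0.02 ± 0.10 (adjusted p = 0.936).

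The MALP-like median of Col1a1 was close to that of leukocyte-like cells. Leukocyte-like cells held Col1a1 at 3.51 to 19.3 per 10,000 (median 11.2), and 90.5% of them had a Col1a1 UMI after thinning to 4000 UMIs (96.6% before), against 89.4% of MALP-like cells (98.3% before). Cells under 4000 UMIs were left out of every thinned share, namely 3781 leukocyte-like, 1182 LMP-like, 936 MALP-like, 280 OBP-like, 112 OB1-like, 179 OB2-like and 112 Ocy-like cells. Per cell, the leukocyte-like Col1a1 count was a median of 57.3% of the MALP-like count and 28.4% for Col1a2, but 6.58% and 4.80% of the LMP-like counts and at most 1.10% of the counts in any osteogenic class. With that count subtracted, the MALP-like median of Col1a1 was 3.53 per 10,000 and its log2 fold change to LMP-like cells -3.13, and with called doublets kept it was -1.35. The direction held in both. Osteogenic marker RNA was also found in these cells (Ibsp, 27.7 per 10,000 in MALP-like, 87.9 in LMP-like and 10.3 in leukocyte-like cells). Its source and its relation to the LMP-like level of Col1a1 were not tested.

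Within single cells the type I chains moved together. The correlation of log levels of Col1a1 and Col1a2 over the cells of a pool had a median of 0.91 in LMP-like cells, 0.61 in MALP-like cells and 0.89 to 0.92 in the osteogenic classes. These values describe cells that share a library and vary in depth. Over all 92 pool-by-class sums, r of log2 levels was 0.99.

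Col3a1 (chr1:45311538-45349706, plus strand), the single chain of type III collagen, ran against the type I chains from LMP-like through OBP-like to OB1-like cells. In MALP-like cells it was lower than in LMP-like cells, as the type I chains were. It ran from 4.47 through 8.11 to 14.8 UMIs per 10,000 over LMP-like pools and from 1.53 through 2.11 to 4.18 over MALP-like pools. OBP-like pools lay between 0.635 and 2.55 with a median of 1.55. No MALP-like or OBP-like pool reached the LMP-like range, so the progenitors labelled LMP had the highest Col3a1 of the 6 classes in every pool that could be compared. The study itself showed Col3a1 as an LMP gene from these cells, so that direction is not independent evidence.

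The mature classes differed in Col3a1. OB1-like pools ran from 0.173 through 0.490 to 2.497, the highest being pool 10, and Ocy-like pools from 0.214 through 0.352 to 1.195. OB2-like pools stood at 1.08 to 2.95 with a median of 2.10. Every one of the 12 shared pools was higher in OB2-like than in OB1-like cells, although the ranges overlapped through pool 10.

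The log2 fold changes of Col3a1 were -2.10 ± 0.15 in MALP-like and -2.22 ± 0.15 in OBP-like against LMP-like cells (adjusted p = 1.20e-22 and 9.71e-24). The value was -1.30 ± 0.16 in OB1-like against OBP-like cells (adjusted p = 1.83e-10, lower in 13 of 14 pools). In OB2-like against OB1-like cells Col3a1 was 1.83 ± 0.17 higher (adjusted p = 6.70e-16). The Ocy-like value of -0.48 ± 0.18 against OB1-like cells passed (adjusted p = 0.0237) but was lower in only 9 of 14 pools, turned to 0.15 with a stricter gate and was lost without pool 12 (-0.42, adjusted p = 0.0629) or pool 17 (-0.41, adjusted p = 0.0706). The pools of these classes overlapped throughout.

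Leukocyte-like pools had a median Col3a1 level of 0.116 per 10,000. Their count per cell was a median of 0.595% of the LMP-like count, 3.81% of the MALP-like count, 8.38% of the OB1-like count and 14.9% of the Ocy-like count, and reached 32.6% in an OB1-like and 28.8% in an Ocy-like pool. After thinning to 4000 UMIs, 76.4% of LMP-like, 42.5% of MALP-like, 36.2% of OB2-like and 30.7% of OBP-like cells held a Col3a1 UMI, against 14.5% of OB1-like, 11.5% of Ocy-like and 5.56% of leukocyte-like cells. Before thinning the shares were 88.4%, 58.3%, 65.3%, 62.5%, 39.3%, 34.4% and 8.77% in the same order, so every mesenchymal class stood above the leukocyte-like share.

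Single cells with more Col3a1 than Col1a1 UMIs were found among LMP-like and MALP-like cells. They made up a median of 5.24% of LMP-like cells (0.504% to 11.6% over pools) and 5.08% of MALP-like cells (0.818% to 24.1%). In MALP-like pools the leukocyte-like count per cell was 26.8% to 84.2% of the Col1a1 count and 1.22% to 15.1% of the Col3a1 count, and its part in this share was not tested. Among the 4 osteogenic classes 0 of 14003 cells were of this kind, the unsplit osteogenic cells not being counted. Median UMIs per cell over pools were at least 616 for Col1a1 and at most 4.19 for Col3a1 in these classes. Taken as independent draws, 0 cells would allow a share of up to 0.0214% from counting error alone. Cells of a pool are not independent, so this limit does not cover differences between pools. The cell-level correlation of Col1a1 with Col3a1 had a median of 0.31 in LMP-like cells, 0.13 in MALP-like cells and -0.24 to 0.08 in the osteogenic classes.

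The type V chains did not move as a unit. Col5a1 (chr2:27886425-28039514, plus strand) encodes alpha1(V), the chain present in most forms of type V collagen. It ran from 2.47 through 5.37 to 6.86 UMIs per 10,000 in LMP-like, from 0.753 through 1.14 to 2.03 in MALP-like and from 5.45 through 8.53 to 9.34 in OBP-like pools. OB1-like pools ran from 4.21 through 7.01 to 9.04, OB2-like pools from 11.5 through 13.2 to 14.3 and Ocy-like pools from 3.41 through 6.89 to 9.36. The OB2-like range lay above every pool of all the other classes.

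Col5a1 was not called between OBP-like and OB1-like cells, where Col1a1, Col1a2, Col5a2 and Col11a1 rose. Its log2 fold change there was -0.07 ± 0.09 (adjusted p = 0.518), although 13 of 14 pools were lower on the plain scale and the value was -0.27 (adjusted p = 0.00186) with library size alone. It was -2.33 ± 0.09 in MALP-like and 0.92 ± 0.08 in OBP-like against LMP-like cells (adjusted p = 4.23e-39 and 5.26e-17). OB2-like cells were higher than OB1-like cells in 12 of 12 pools with no overlap, by 0.88 ± 0.09 (adjusted p = 5.52e-14), and Ocy-like cells differed from OB1-like cells by -0.18 ± 0.09 (adjusted p = 0.0877, or -0.20 and 0.0414 without pool 18).

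Col5a2 (chr1:45374321-45503282, minus strand) encodes alpha2(V) and lies beside Col3a1 on the opposite strand. It ran from 3.37 through 6.51 to 10.2 in LMP-like, from 2.40 through 2.89 to 5.66 in MALP-like and from 18.9 through 22.4 to 27.0 in OBP-like pools. Its medians in OB1-, OB2- and Ocy-like pools were 28.1, 26.0 and 22.3, with ranges of 16.8 to 38.1, 21.6 to 31.0 and 14.9 to 28.2. The OBP-like pools stood clear of the LMP-like pools, and the osteogenic classes overlapped. Despite its place beside Col3a1, its fold change from LMP-like to OBP-like cells was 2.07 ± 0.08 on the log2 scale (adjusted p = 1.82e-37) where that of Col3a1 was negative.

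The other differences of Col5a2 were smaller. It fell in MALP-like against LMP-like cells (-1.32 ± 0.08, adjusted p = 9.50e-26) and rose in OB1-like against OBP-like cells (0.49 ± 0.08, adjusted p = 5.39e-07). Ocy-like cells were lower than OB1-like cells in 14 of 14 pools (-0.51 ± 0.08, adjusted p = 3.07e-07). The OB2-like value against OB1-like cells was -0.16 ± 0.09 (adjusted p = 0.113, lower in 10 of 12 pools), and -0.21 (adjusted p = 0.0475) without pool 3. Leukocyte-like medians were 0.354 for Col5a1 and 0.8495 for Col5a2, and their counts per cell were 16.8% and 15.3% of the MALP-like counts.

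Col5a3 (chr9:20770050-20815067, minus strand), the alpha3(V) chain of some type V trimers, was rare and found mainly in LMP-like and MALP-like cells. Its medians were 0.0937 in LMP-like and 0.0862 in MALP-like pools, with ranges of 0.0407 to 0.209 and 0.0379 to 0.301. The medians were 0.0074, 0.0038 and 0.0094 in OBP-, OB1- and OB2-like pools, and 10 of 16 Ocy-like pools held no UMI of it, with 7 UMIs in all. The log2 fold change was -3.52 ± 0.23 in OBP-like against LMP-like cells (adjusted p = 2.19e-24), with no overlap between pools. MALP-like cells differed from LMP-like cells by -0.24 ± 0.15 (adjusted p = 0.145, or -0.35 and 0.0374 without pool 18). The leukocyte-like median was 0.004. Per cell, the leukocyte-like count was a median of 10.6%, 32.2% and 10.9% of the OBP-, OB1- and OB2-like counts, over pools where the class held a UMI. It reached 61.7%, 407% and 128% in single pools. The OB2-like rise over OB1-like cells (0.96 ± 0.42, adjusted p = 0.0464), which rests on 67 and 27 UMIs, was lost in 10 of 16 fits that left out 1 pool.

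Col11a1 (chr3:114030540-114220718, plus strand) encodes alpha1(XI), best known from cartilage but able to stand in for alpha1(V) in mixed trimers. It ran from 1.19 through 2.43 to 4.07 UMIs per 10,000 in LMP-like, from 0.386 through 0.715 to 2.47 in MALP-like and from 13.9 through 18.2 to 24.2 in OBP-like pools. In OB1-like pools it ran from 13.4 through 31.5 to 47.0, in OB2-like pools from 13.3 through 17.6 to 22.3 and in Ocy-like pools from 9.30 through 23.1 to 29.4. OBP-like pools lay above all LMP-like pools, and in each of the 12 shared pools OB2-like cells were lower than OB1-like cells.

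The fold change of Col11a1 from LMP-like to OBP-like cells was 3.26 ± 0.14 on the log2 scale (adjusted p = 2.97e-36), beside 2.76 and 2.63 for the type I chains. It rose again in OB1-like cells (0.86 ± 0.13, adjusted p = 4.26e-08, higher in 12 of 14 pools). The study itself showed Col11a1 as an OB1 gene from these cells, so this direction is not independent evidence. OB2-like and Ocy-like cells were lower than OB1-like cells, by -0.85 ± 0.14 and -0.64 ± 0.13 (adjusted p = 1.19e-07 and 3.32e-05). In MALP-like cells it was -1.72 ± 0.13 against LMP-like cells (adjusted p = 1.98e-20), and -2.25 with free RNA subtracted, since the leukocyte-like count per cell was 32.8% of the MALP-like count.

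Col24a1 (chr3:145292472-145552011, plus strand) encodes the type XXIV chain, a collagen linked to bone formation. Its medians were 0.012 and 0.0139 UMIs per 10,000 in LMP-like and MALP-like pools, beside a leukocyte-like median of 0.0116. Per cell, the leukocyte-like count was a median of 24.3% of the LMP-like and 31.7% of the MALP-like count, and with it subtracted the medians were 0.0086 and 0.0098 per 10,000. OBP-like pools ran from 0.250 through 0.362 to 0.462, OB1-like pools from 0.133 through 0.447 to 0.579, OB2-like pools from 0.175 through 0.258 to 0.324 and Ocy-like pools from 0.425 through 0.858 to 1.45. Its fold change from LMP-like to OBP-like cells was 4.85 ± 0.15 (adjusted p = 1.24e-43), the highest of the 9 genes, and 5.24 with free RNA subtracted. An antisense gene on the other strand, 9530034A14Rik, overlaps it and was counted in the files, and reads of that pair are separated by strand only if the counting used strand.

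Of the 9 genes, Col24a1 was also the only 1 called higher in Ocy-like than in OB1-like cells. The log2 difference was 0.95 ± 0.12 (adjusted p = 7.11e-10, higher in 14 of 14 pools). OB2-like cells lay below OB1-like cells in 12 of 12 shared pools with no overlap (-0.86 ± 0.13, adjusted p = 3.70e-08). The OB1-like rise over OBP-like cells was 0.38 ± 0.12 (adjusted p = 0.00897, 10 of 14 pools) and was not called with DESeq2 (0.35, adjusted p = 0.0646), without the pool block (0.41, adjusted p = 0.0502) or with library size alone (0.17, adjusted p = 0.240). After thinning, 28.8% of Ocy-like, 15.3% of OB1-like, 13.6% of OBP-like and 9.36% of OB2-like cells held a Col24a1 UMI, against 0.614% of LMP-like, 0.676% of MALP-like and 0.259% of leukocyte-like cells (61.8%, 45.2%, 44.9%, 31.0%, 2.59%, 1.75% and 0.633% before thinning).

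Col27a1 (chr4:63214004-63334991, plus strand), the type XXVII chain known from cartilage, was scarce throughout. Its medians were 0.117 in LMP-like and 0.137 in MALP-like pools, and 0.0241 to 0.0382 in the osteogenic classes, at or below the leukocyte-like median of 0.0475. It fell from LMP-like to OBP-like cells (-1.74 ± 0.15, adjusted p = 1.45e-17, lower in 16 of 16 pools). The MALP-like value against LMP-like cells was 0.0025 ± 0.13 on the log2 scale (adjusted p = 0.988). Among osteogenic classes the called differences (0.65 ± 0.19, -0.78 ± 0.21 and -0.60 ± 0.23 in the 3 comparisons above, adjusted p = 0.0034, 0.000894 and 0.0308) concern median levels per 10,000 that do not exceed the leukocyte-like one. Per cell, the leukocyte-like count was a median of 37.4% to 72.4% of the counts in these classes. The OB1-like call against OBP-like cells was lost with free RNA subtracted (0.80, adjusted p = 0.0649). The Ocy-like call was lost with free RNA subtracted (-1.15, adjusted p = 0.0506), in the second run (-0.40, adjusted p = 0.159), with the looser gate, with at least 5000 UMIs, with library size alone and without any 1 of pools 4, 5, 6, 9, 13 and 17 (-0.56 to -0.49, adjusted p up to 0.0967).

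Promoter sequence is shown for 1 chain each of types I, XI, V and III, so that the letters before the start site can be seen beside the fold changes. RefSeq starts in GRCm38.p6 matched 7 of the 9 genes, not Col1a1 or Col5a2, and 250 bases before the start are shown, all on the plus strand. Letters in capitals mark CCAAT (or ATTGG on the other strand), GGGCGG (or CCGCCC) and TATAAA (or TTTATA). No motif here overlaps another. The RefSeq start of Col1a2 lies downstream of the GENCODE start given above, so its window falls inside the GENCODE gene.
Col1a2, chr6:4505368-4505617: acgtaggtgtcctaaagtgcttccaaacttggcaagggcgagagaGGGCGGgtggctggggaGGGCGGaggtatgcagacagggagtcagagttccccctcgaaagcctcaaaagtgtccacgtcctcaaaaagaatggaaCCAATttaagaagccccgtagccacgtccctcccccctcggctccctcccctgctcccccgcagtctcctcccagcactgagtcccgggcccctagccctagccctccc
Col11a1, chr3:114030290-114030539: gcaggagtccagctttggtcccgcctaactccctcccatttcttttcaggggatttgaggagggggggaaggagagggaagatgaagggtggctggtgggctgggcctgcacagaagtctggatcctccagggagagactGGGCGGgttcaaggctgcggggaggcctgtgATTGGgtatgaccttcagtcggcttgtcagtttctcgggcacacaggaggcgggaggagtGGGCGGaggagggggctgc
Col5a1, chr2:27886175-27886424: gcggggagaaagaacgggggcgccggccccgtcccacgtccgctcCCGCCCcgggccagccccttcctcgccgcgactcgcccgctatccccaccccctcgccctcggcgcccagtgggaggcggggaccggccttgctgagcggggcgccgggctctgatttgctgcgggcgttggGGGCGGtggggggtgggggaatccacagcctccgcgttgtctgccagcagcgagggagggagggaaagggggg
Col3a1, chr1:45311288-45311537: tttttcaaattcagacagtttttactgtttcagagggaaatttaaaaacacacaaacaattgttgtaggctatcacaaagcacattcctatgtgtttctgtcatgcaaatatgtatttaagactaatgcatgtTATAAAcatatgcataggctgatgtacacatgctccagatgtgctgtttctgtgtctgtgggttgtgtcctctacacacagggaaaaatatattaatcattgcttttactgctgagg

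The Col1a2 and Col11a1 windows, from genes that rose together in osteogenic cells, each held 1 CCAAT and 2 GGGCGG matches, with a GC content of 62.0% and 62.4%. Col5a1 had 2 GGGCGG matches and a GC content of 76.4%. Col3a1, the gene that fell, held 1 TATAAA match from 117 to 112 bases upstream and a GC content of 35.2%. Over 32851 promoters of the same length, 33.8% held a CCAAT, 32.7% a GGGCGG and 12.4% a TATAAA match on either strand, and the median GC content was 52.4%. Col5a3 held 1 CCAAT and 2 GGGCGG matches, Col27a1 held 1 GGGCGG and Col24a1 none of the 3 motifs. Col5a3 and Col27a1 were lower in OBP-like than in LMP-like cells and Col24a1 had the largest rise of the 9 genes there, so these matches did not go with 1 direction. A match is only a string of letters, and other start sites of these genes were not searched.

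The genes that hydroxylate, fold, export, trim and cross-link procollagen were mostly lower in MALP-like and higher in OBP-like cells, as the type I chains were. Of 30 such genes, 28 were tested in each comparison. In MALP-like against LMP-like cells 2 were higher, 25 lower and 1 not called, with a median log2 fold change of -0.75 beside 0.00 for all genes, of which 36.6% were higher and 36.5% lower. In OBP-like against LMP-like cells 22 were higher, 3 lower and 3 not called, with a median of 1.26 beside -0.07 for all genes, of which 32.7% were higher and 40.7% lower. The list was drawn up with earlier results of these data known, and no test was made of it as a set.

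Later the list split. In OB1-like against OBP-like cells 9 were higher and 11 lower, with a median of -0.06 beside 0.01 for all genes, of which 24.0% were higher and 23.3% lower. With library size alone 5 were higher and 18 lower, while over all genes 1492 were higher and 5357 lower and the median was -0.19. In OB2-like against OB1-like cells 14 were higher and 3 lower, with a median of 0.17 beside 0.00 for all genes (28.3% higher and 27.9% lower). In Ocy-like against OB1-like cells 4 were higher and 14 lower, with a median of -0.27 beside -0.02 for all genes (17.9% higher and 22.8% lower). With library size alone 4 were higher and 9 lower, while over all genes 4186 were higher and 1553 lower and the median was 0.13.

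**Figure D3:**
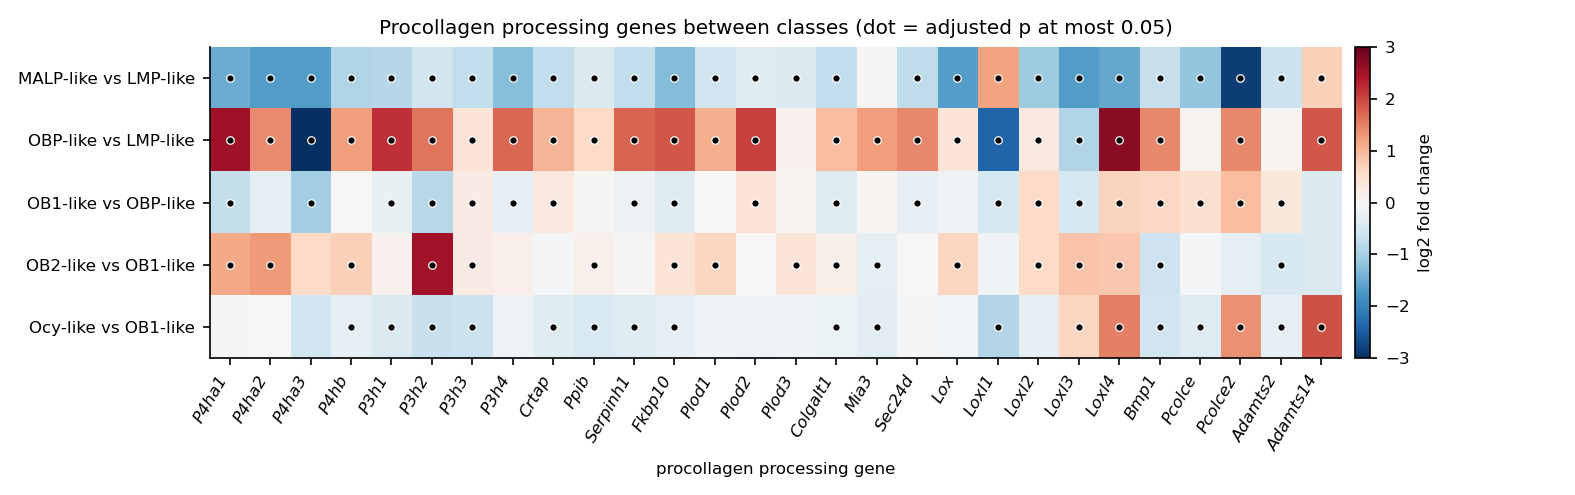
Log2 fold change (colour) of the 28 tested procollagen processing genes (columns) in the 5 comparisons (rows); a dot marks an adjusted p of at most 0.05. In OBP-like against LMP-like cells 22 genes are higher, and in MALP-like against LMP-like cells 25 are lower.

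In OBP-like against LMP-like cells the largest rises were those of Loxl4, a lysyl oxidase that cross-links chains (2.70 ± 0.18), and P4ha1, a catalytic subunit of prolyl 4-hydroxylase (2.55 ± 0.12). The largest falls there were P4ha3, another subunit of that enzyme (-2.98 ± 0.14), and Loxl1, another lysyl oxidase (-2.40 ± 0.08). So members of 1 enzyme family changed in opposite directions within the same cells. In MALP-like against LMP-like cells Loxl1 (1.203 ± 0.07) and Adamts14, a procollagen N-proteinase (0.71 ± 0.18), rose, while Pcolce2, an enhancer of C-propeptide removal (-2.82 ± 0.19), and P4ha2 (-1.69 ± 0.13) fell most.

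Among osteogenic classes, in OB2-like against OB1-like cells P3h2, a prolyl 3-hydroxylase (2.51 ± 0.19), and P4ha2 (1.28 ± 0.14) rose most, and Bmp1, the procollagen C-proteinase (-0.63 ± 0.09), and Adamts2, the main procollagen N-proteinase (-0.47 ± 0.09), fell most. Not every hydroxylase gene was called there, as shown by 2 genes picked after their values were seen, P3h1 at 0.13 ± 0.08 (adjusted p = 0.151) and Plod2 at -0.017 ± 0.10 (adjusted p = 0.905). OB2-like cells were gated on Bsg, Ndrg1, Ero1l and Mt1, and the part of that choice in the OB2-like differences was not tested. From OBP-like to OB1-like cells Pcolce2 (0.92 ± 0.14) and Loxl4 (0.66 ± 0.17) rose and P4ha3 (-1.04 ± 0.24) and P3h2 (-0.83 ± 0.20) fell. In Ocy-like against OB1-like cells Adamts14 (1.90 ± 0.19) and Loxl4 (1.52 ± 0.17) rose and Loxl1 (-0.88 ± 0.15) and P3h2 (-0.67 ± 0.26) fell. Apart from P3h1 and Plod2, these passed an adjusted p of 0.05 over the 12028 genes, the highest being 0.0301 for P3h2 in Ocy-like cells. Of the other fibrillar genes, Col11a2 rose in OBP-like against LMP-like cells (4.69 ± 0.22), and Col2a1, the cartilage collagen, fell there (-3.43 ± 0.45). Against OB1-like cells, Col2a1 was higher in OB2-like (2.23 ± 0.57) and Ocy-like cells (2.19 ± 0.555), with edgeR adjusted p = 0.000527 and 0.000817. Col11a2 was higher in OB1-like than in OBP-like cells (0.93 ± 0.19) and lower in OB2-like than in OB1-like cells (-0.79 ± 0.20). Both were lower in MALP-like than in LMP-like cells. The standard errors of Col2a1 ran from 0.43 to 0.60 over the 5 comparisons. Levels of Col2a1 and Col11a2 were not examined and free RNA was not subtracted from them, so their fold changes do not show how much RNA a class held.

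Ratios of chain transcripts within the same cells, which do not depend on scaling to the total, were described next. No protein was measured, so these ratios do not give the make-up of fibrils. Exact sign-flip permutation tests over pools, two-sided, were adjusted over 20 tests, and the smallest p they allow is 3.052e-05 with 16 pools, 0.0001221 with 14 and 0.0004883 with 12. A ratio carries the capture of both genes, so differences between classes are compared and not the distance from 1.

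The ratio of Col1a1 to Col1a2 ran from 0.759 through 0.987 to 1.55 in LMP-like pools, from 0.361 through 0.735 to 1.75 in MALP-like pools and from 0.967 through 1.11 to 1.34 in OBP-like pools. Its medians were 1.18 in OB1-like, 1.32 in OB2-like and 1.13 in Ocy-like pools, and 1.41 in leukocyte-like pools. From OBP-like to OB1-like cells the log2 ratio rose by 0.10 ± 0.014 (SE, 14 of 14 pools, exact permutation adjusted p = 0.000305), and from OB1-like to OB2-like cells by 0.16 ± 0.023 (12 of 12 pools, adjusted p = 0.000751). These shifts are small but were shared by every pool. Ocy-like cells differed from OB1-like cells by -0.03 ± 0.017 (exact permutation adjusted p = 0.158, 8 of 14 pools lower).

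Among progenitors the type I ratio was less firm. It was lower in MALP-like than in LMP-like cells by -0.41 ± 0.098 on the log2 scale (13 of 16 pools, exact permutation adjusted p = 0.00118), but -1.09 (adjusted p = 0.000339, 14 of 16 pools lower) with free RNA subtracted and -0.11 (adjusted p = 0.0836) with called doublets kept. It was higher in OBP-like than in LMP-like cells by 0.12 ± 0.054 (14 of 16 pools, exact permutation adjusted p = 0.0430), a call lost in 12 of 16 sets that left out 1 pool. Pool 13 had the highest ratio in LMP- and MALP-like cells and pool 3 in all 4 osteogenic classes.

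The ratio of Col3a1 to Col1a1 ranged widely between classes. Its median was 0.188 in LMP-like and 0.186 in MALP-like pools, 0.0056 in OBP-like, 0.0057 in OB2-like, 0.0011 in OB1-like and 0.0008 in Ocy-like pools. The log2 ratio changed by -4.99 ± 0.19 from LMP-like to OBP-like cells (16 of 16 pools, exact permutation adjusted p = 0.000153) and by -2.19 ± 0.17 from OBP-like to OB1-like cells (14 of 14, adjusted p = 0.000305). OB2-like cells were higher than OB1-like cells by 2.14 ± 0.20 (12 of 12, exact permutation adjusted p = 0.000751), with a median near that of OBP-like cells.

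The comparison of MALP-like with LMP-like cells gave no stable Col3a1 to Col1a1 difference. It was 0.16 ± 0.19 on the log2 scale (higher in 9 of 16 pools, exact permutation adjusted p = 0.428), but 1.22 (adjusted p = 0.00111) with free RNA subtracted and -0.71 (reversed, adjusted p = 0.0022) with doublets kept. Ocy-like cells were lower than OB1-like cells by -0.44 ± 0.16 (11 of 14 pools, exact permutation adjusted p = 0.01996), which turned to 0.08 with a stricter gate.

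The ratio of Col5a1 to Col5a2 was highest in LMP-like cells. Its medians were 0.771 in LMP-like, 0.400 in MALP-like, 0.371 in OBP-like, 0.248 in OB1-like, 0.512 in OB2-like and 0.304 in Ocy-like pools. The log2 ratio changed by -1.003 ± 0.043 in MALP-like and by -1.13 ± 0.054 in OBP-like against LMP-like cells, in 16 of 16 pools each (exact permutation adjusted p = 0.000153). It changed by -0.53 ± 0.046 from OBP-like to OB1-like cells and by 1.09 ± 0.057 from OB1-like to OB2-like cells, again in every pool (adjusted p = 0.000305 and 0.000751). Ocy-like cells were 0.31 ± 0.067 above OB1-like cells (12 of 14 pools, exact permutation adjusted p = 0.00105).

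The ratio of Col11a1 to Col5a1, the chains that can replace each other, had its highest median in OB1-like cells. Medians were 0.489 in LMP-like, 0.607 in MALP-like, 2.31 in OBP-like, 4.21 in OB1-like, 1.34 in OB2-like and 3.05 in Ocy-like pools. The log2 ratio changed by 2.29 ± 0.085 from LMP-like to OBP-like cells, by 0.91 ± 0.092 on to OB1-like cells and by -1.80 ± 0.14 from OB1-like to OB2-like cells, each in every pool (exact permutation adjusted p = 0.000153, 0.000305 and 0.000751). Ocy-like cells were lower than OB1-like cells by -0.40 ± 0.076 (13 of 14 pools, adjusted p = 0.000751). The MALP-like rise over LMP-like cells of 0.53 ± 0.12 (adjusted p = 0.00118) was 0.13 (adjusted p = 0.503) with free RNA subtracted. Col5a1 is also the upper term of the ratio before, and Col5a2 and Col11a1 had r = 0.98 over the pool-by-class sums. Opposite shifts of these 2 ratios therefore follow in part from their shared chain and are not separate results.

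**Figure D4:**
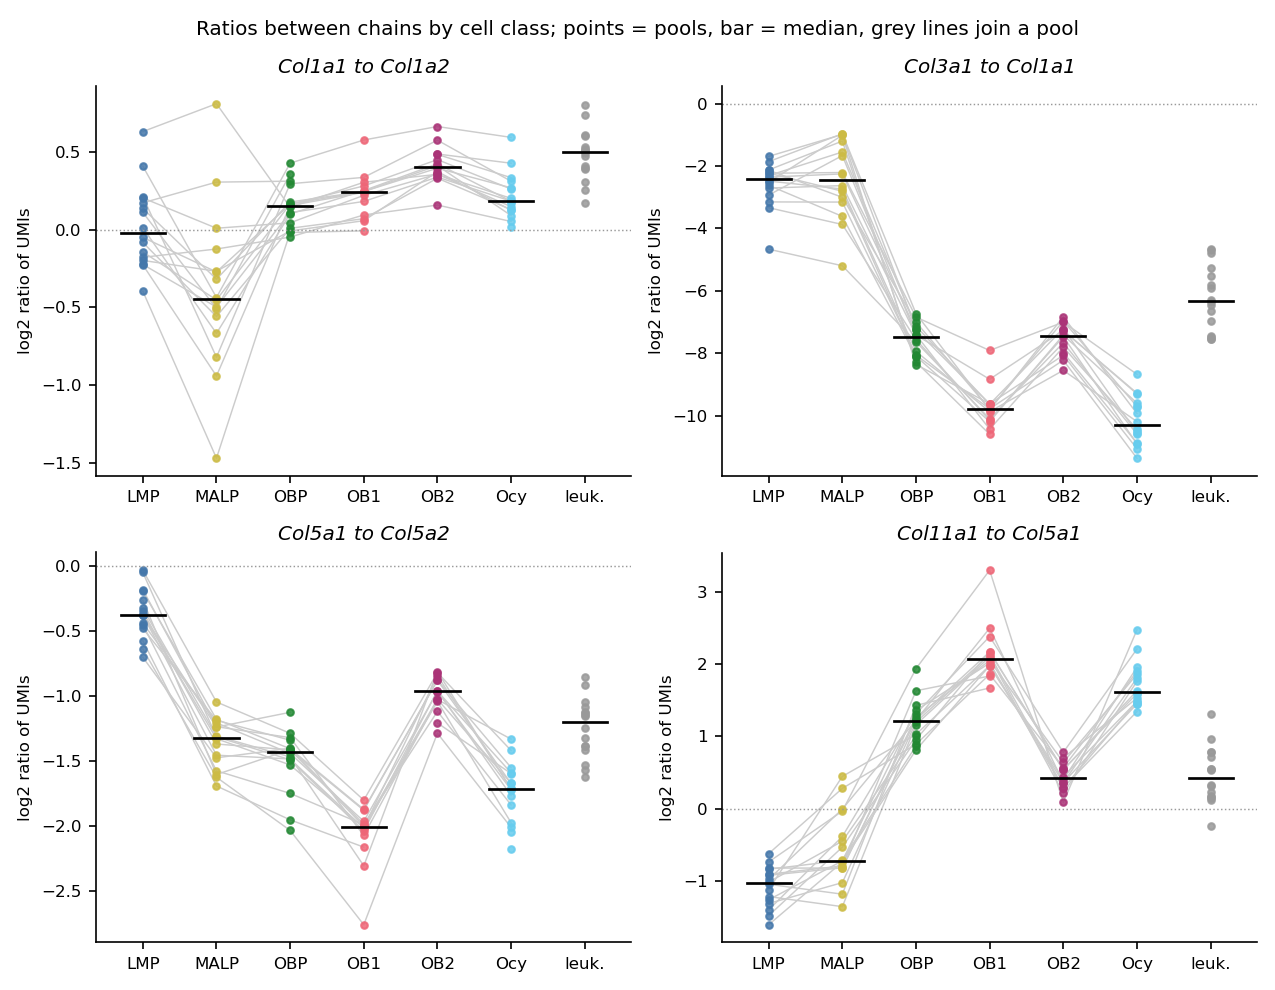
Log2 ratio of UMIs of 2 chains in each class; points are pools, grey lines join the classes of 1 pool, bars are medians and leuk. marks leukocyte-like cells. Col5a1 to Col5a2 falls from LMP- to OB1-like cells and is higher in OB2-like cells in 12 of 12 pools. Col11a1 to Col5a1, which has the shared chain Col5a1 as its lower term, does the opposite.

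Pools differed from one another in a way that carried across classes. The log2 ratio of Col1a1 to Col1a2 in OBP-like cells correlated with that in OB1-like cells over 14 pools (Pearson r = 0.94, permutation p = 1e-05, adjusted p = 6e-05 over 6 relations, the smallest that 100000 permutations can give; Spearman rho = 0.84, p = 0.00037, adjusted p = 0.00222). Without pools 3 and 14, the farthest from the median, r was 0.88, and it was 0.95 within the 8 deeper pools and 0.96 within the 6 shallower ones (exact permutation adjusted p = 0.00253 and 0.0417). Spearman's rho was 0.95 within the deeper pools (exact permutation adjusted p = 0.00670) and 0.71 within the shallower ones, which was not called (exact permutation adjusted p = 0.257). With the leukocyte-like count per cell subtracted, r was 0.94 (permutation adjusted p = 6e-05). The classes of a pool share a library and its mice, and the parts of these cannot be told apart.

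The relations that involve progenitors were less even. For Col1a1 to Col1a2 in LMP-like against MALP-like cells r was 0.66 over 16 pools (permutation p = 0.00599, adjusted p = 0.0120) and rho 0.46 (permutation p = 0.0776, adjusted p = 0.116), but r was 0.55 with free RNA subtracted (adjusted p = 0.0416), 0.53 without pools 3 and 13, 0.46 without pool 13 alone, 0.57 (adjusted p = 0.0567) without pool 2, -0.04 within the 8 deeper pools and 0.89 within the 8 shallower ones. This relation rests on few pools and did not hold within the deeper ones. In LMP-like against OBP-like cells r was 0.58 (permutation p = 0.0194, adjusted p = 0.0291) and rho 0.57 (permutation p = 0.0221, adjusted p = 0.0441), but r was no longer called without pools 3 and 13 (0.63, adjusted p = 0.0554), within the deeper pools (0.72, adjusted p = 0.0837), within the shallower pools (0.49, adjusted p = 0.330) or without pool 2, 3 or 6 (0.51, 0.48 and 0.55). The call on rho was lost with free RNA subtracted (adjusted p = 0.0662), and with 1 pool left out it held only without pool 1, 5, 10, 12 or 13.

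For Col3a1 to Col1a1, LMP-like and MALP-like cells gave r = 0.79 (permutation p = 0.00041, adjusted p = 0.00123) and rho = 0.67 (permutation p = 0.00654, adjusted p = 0.0196) over 16 pools. Without pools 5 and 13 r was 0.50 (adjusted p = 0.101), and it was 0.52 within the deeper and 0.85 within the shallower pools, so the relation rests largely on those 2 pools. With free RNA subtracted r was 0.74 (permutation adjusted p = 0.00597) and rho 0.49, no longer called (permutation adjusted p = 0.108). LMP-like against OBP-like cells gave r = 0.25 (permutation p = 0.377) and rho = 0.36 (permutation p = 0.167). Within the deeper pools r was 0.85 and rho 0.93, both called (exact permutation adjusted p = 0.0142 and 0.00670). Pearson's r was 0.16 within the shallower pools and 0.42 without pools 5 and 13. OBP-like against OB1-like cells gave r = 0.47 (permutation p = 0.0884, adjusted p = 0.106) and rho = 0.34 (permutation p = 0.234), with 0.46 without pools 1 and 2, 0.48 within the deeper and 0.27 within the shallower pools. With OB1-like values from the second run r was 0.64 and rho 0.64, both called (permutation adjusted p = 0.0077 and 0.0363).

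**Figure D5:**
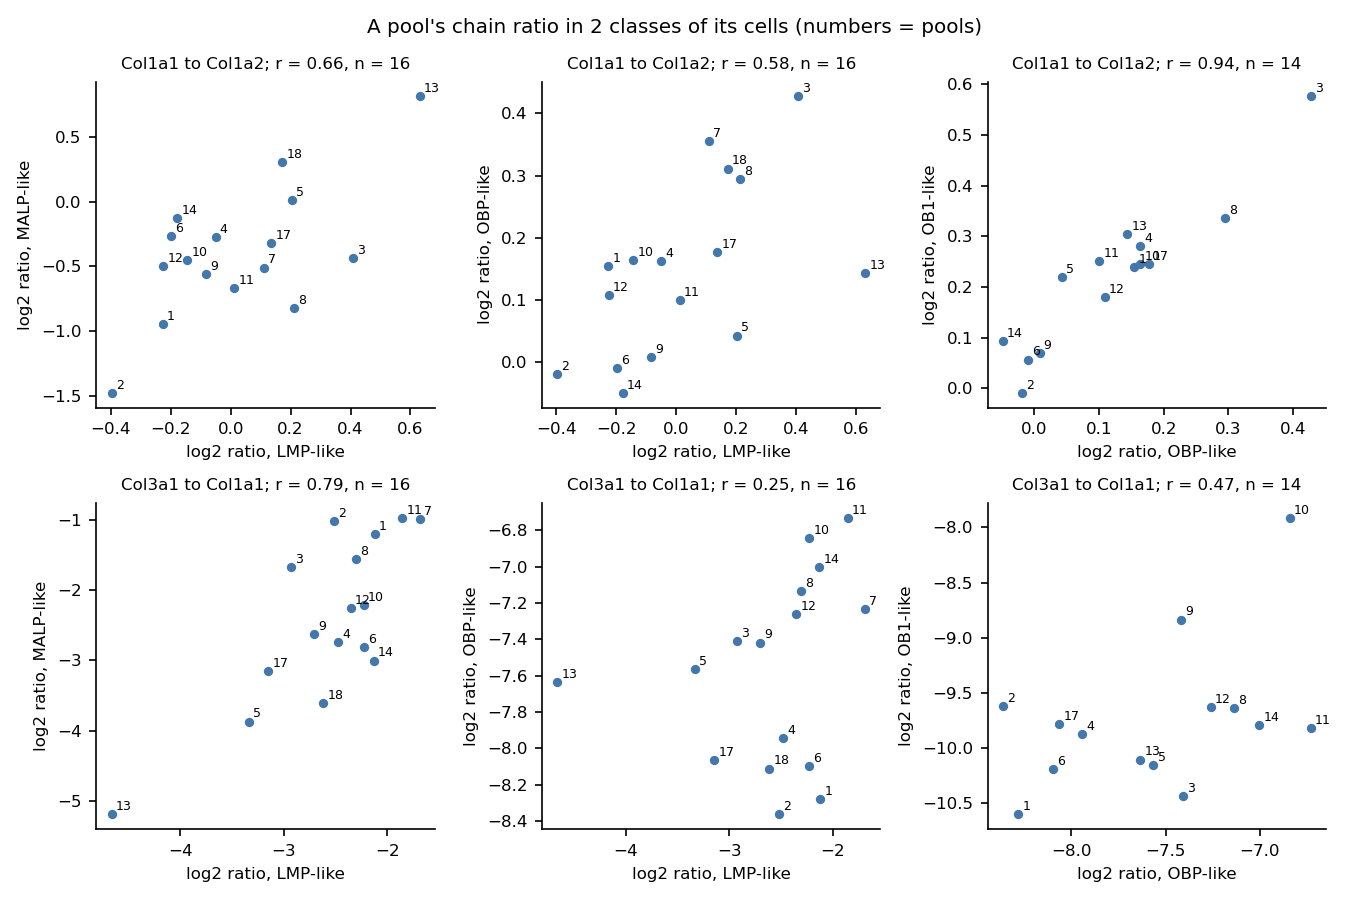
Log2 ratio of Col1a1 to Col1a2 (top) and Col3a1 to Col1a1 (bottom) in 1 class (x) against another (y); each number is a pool and r is Pearson's. The points for Col1a1 to Col1a2 in OBP-like and OB1-like cells follow a line (r = 0.94), and pool 13 stands at the edge of the LMP-like and MALP-like panels.

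Genes with the most similar pattern were sought over the 92 pool-by-class sums among 1330 genes with a mean of at least 1 UMI per 10,000, markers and members left out. For Col1a1 they were Sparc, the matricellular protein osteonectin (r = 0.98), Cgref1 (0.98) and Fyn, a Src-family kinase (0.97). The nearest to Col11a1 were these 3 genes in another order (Fyn 0.98, Sparc 0.98, Cgref1 0.98). Col3a1 had as nearest Col6a2, a chain of the microfibrillar type VI collagen (0.93), Itm2a (0.93) and Col12a1, a fibril-associated collagen (0.91). For Col5a1 they were Slc16a3, a lactate transporter (0.96), P4ha2 (0.96) and Pkm, a glycolytic enzyme (0.96). The OB2-like gate, whose pools had the highest Col5a1, used Bsg, Ndrg1, Ero1l and Mt1, and its part in these matches was not tested. Sums of a pool share its library and sums of a class share its markers, so these values describe the set and carry no p. Among the members themselves Col1a1 had r = 0.99 with Col1a2, 0.98 with both Col5a2 and Col11a1, 0.91 with Col24a1 and 0.88 with Col5a1. It had r = -0.57 with Col3a1, -0.79 with Col27a1 and -0.87 with Col5a3.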

How the data were processed

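UMI counts per gene and droplet were deposited as 10x matrices for 32 samples (16 pools by 2 sequencing runs). The authors made them with Cell Ranger 5.0.0 on mm10 (GRCm38); the annotation release is not given in the sources used here. Here the first run (HGYVNCCX2) was the main one, since both runs read the same droplets.

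The filter kept 88909 cells that had 400 to 6200 genes and in which mitochondrial transcripts stayed at or under 10%, Rpl at or under 20% and Rps at or under 15%. Doublets were called against simulated ones (5003 cells), the authors' own doublet calls by genotype not being used here. Cells with at least 2000 UMIs (67845) were scored by the mean z of each marker list, and a class needed a score of 0.3, a margin of 0.3 and 3 detected markers. Mesenchymal cells also needed a leukocyte score under 0, fewer than 3 detected endothelial markers and fewer than 3 detected glial markers. The scoring rule was set after the marker values were seen, Snorc was absent from the features, and the authors' mesenchymal progenitor class was not gated. Of 32202 gated cells found in both runs, 86.35% got the same class in the second.

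Counts were summed per pool and class (at least 20 cells) and fitted with edgeR 4.0.16 in R 4.3.3 (filterByExpr, TMM, quasi-likelihood test, class plus pool, 6 classes in 1 fit), with Benjamini-Hochberg adjustment over 12028 genes. The pool was a block because both classes of a pool come from the same droplets. Deviations from the class means correlated within a pool (lowest r 0.1555 to 0.3276, medians 0.3124 to 0.5505) and not between pools (-0.0461 to -0.0337). Ratios were tested over pools by exact sign flips and relations by 100000 permutations. Scripts were tested on simulated data.

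The alternatives were the second run, both runs summed, stricter and looser gates, a floor of 5000 UMIs, doublets kept, leukocyte-like counts per cell subtracted, library size alone, no low-count filter, no pool block, only the compared classes, DESeq2 1.42.0, means over cells and each pool left out. Named genes were all 9 members, the 2 largest called rises and falls of the processing list in each comparison, and the 3 genes most like Col1a1, Col3a1, Col5a1 and Col11a1. The members, lists and tests were chosen with earlier results of these data known. Gene positions are those of GENCODE on GRCm38, and promoters those of RefSeq on GRCm38.p6. Standard errors rest on the spread between pools, while the limit on a share of cells covers counting error only.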

Additional observations from a re-analysis of the deposited data

How the results depend on the processing

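Calls on collagen genes changed direction or side of the threshold as follows, and the causes were not tested. With library size alone, 2 members were lower in OB1-like against OBP-like and 2 in Ocy-like against OB1-like cells (1 and 4 with TMM), 5 processing genes were higher and 18 lower in the first of these (9 and 11) and 9 lower in the second (14). In OB2-like against OB1-like cells 6 processing genes were lower with the looser gate and 5 with only 2 classes in the fit, against 3 in the reported fit and 3 or 4 in the others, while over all genes 3757, 2882 and 3354 were lower. Free RNA was not subtracted from the processing genes, so that alternative is no check on their counts.

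Small fold changes that were not called changed sign: Col24a1 in MALP-like against LMP-like cells (-0.18 with free RNA subtracted), Col27a1 there (-0.028 with the stricter gate, -0.025 with doublets kept, -0.035 without a low-count filter, -0.10 with free RNA subtracted, and -0.053 to 0.057 with 1 pool left out) and Col5a3 there (0.0049 with library size alone). In Ocy-like against OB1-like cells Col1a2 was 0.025 with the stricter gate, 0.013 with at least 5000 UMIs, 0.0045 with doublets kept and 0.15 with library size alone, and Col1a1 was 0.0058 with at least 5000 UMIs and 0.12 with library size alone. With 1 pool left out they ran from -0.028 to 0.021 and from -0.058 to 0.0034, Col1a2 being above 0 without pool 6, 8 or 10 and Col1a1 without pool 10. Col3a1, which was called there, was 0.15 with the stricter gate. Members lower in that comparison numbered 2 to 5 with 1 pool left out, 2 being without pool 17.

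Other members crossed the threshold in the same direction. In OB2-like against OB1-like cells Col1a1 was called with the looser gate, doublets kept, only 2 classes or without pool 13, Col5a2 with the looser gate, only 2 classes or without pool 3, and Col5a3 was lost in the second run, with the looser gate, at least 5000 UMIs, doublets kept, no low-count filter or free RNA subtracted, and in 10 of 16 fits that left out 1 pool. In OB1-like against OBP-like cells Col24a1 was lost with DESeq2 and library size alone, Col27a1 with free RNA subtracted, and Col5a1 was called with library size alone. Between Ocy-like and OB1-like cells Col27a1 was lost in the second run, with the looser gate, at least 5000 UMIs, library size alone, free RNA subtracted and without pool 4, 5, 6, 9, 13 or 17, Col3a1 was lost in the second run, with doublets kept, library size alone and without pool 12 or 17, Col5a1 was called with only 2 classes or without pool 18, and Col5a3 in the second run and both runs summed. Col5a3 in MALP-like against LMP-like cells was called with the stricter gate and without pool 18.

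Ratios in progenitors were the least stable. Col1a1 to Col1a2 in MALP-like against LMP-like cells was -0.11 with doublets kept, and in OBP-like against LMP-like cells 0.12 in the second run, 0.10 with doublets kept, 0.11 with the looser gate, 0.048 as a mean over cells and 0.11 to 0.17 with 1 pool left out (adjusted p up to 0.0813). In Ocy-like against OB1-like cells it was -0.024 and called with the stricter gate. Col3a1 to Col1a1 in MALP-like against LMP-like cells was -0.71 with doublets kept, 1.22 with free RNA subtracted and -0.056 as a mean over cells, and in Ocy-like against OB1-like cells -0.34 in the second run, -0.31 with doublets kept and 0.085 with the stricter gate. Col11a1 to Col5a1 in MALP-like against LMP-like cells was 0.13 with free RNA subtracted.

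Across pools, the Col1a1 to Col1a2 relation of LMP-like with MALP-like cells was 0.53 without the 2 farthest pools, -0.040 in deeper pools and 0.46 to 0.74 with 1 pool left out, and that with OBP-like cells 0.63 without the 2 farthest, 0.72 in deeper and 0.49 in shallower pools and 0.48 to 0.73 with 1 left out. The Col3a1 to Col1a1 relation of LMP-like with MALP-like cells was 0.50 without the 2 farthest and 0.52 in deeper pools, that of LMP-like with OBP-like cells 0.85 in deeper pools, and that of OBP-like with OB1-like cells 0.64 with the second run for the latter.

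Without the pool as replicate block, Col24a1 in OB1-like against OBP-like cells (0.41, adjusted p = 0.0502) and Col3a1 in Ocy-like against OB1-like cells (-0.52, adjusted p = 0.101) were no longer called, and the pairing changed no other member's call. Depth limits Col5a3, Col24a1 and Col27a1, whose levels in several classes lie at the level of leukocyte-like cells.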
